A study of Mus musculus with 8 samples.

Results

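The cytosolic ribosomal proteins were followed as a family through 49 probe sets of an Affymetrix mouse array, out of 12488 probe sets on it. A probe set is a group of short array probes designed against the same transcript. The members were all probe sets whose only annotated gene symbol was that of a protein of the large cytosolic subunit (Rpl genes, Rplp0 to Rplp2), of the small subunit (Rps genes) or Rpsa, with the S6 kinases and pseudogenes left out. They covered 35 of 8252 named genes, and 10 of these genes had several probe sets. Membership was decided by name alone.

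Ribosomal proteins assemble with ribosomal RNA into the large subunit, which joins amino acids, and the small subunit, which reads the messenger RNA. Each protein is present in about equal number in a ribosome, and the mRNAs of the family are among the most abundant of growing cells. These mRNAs commonly begin with a run of pyrimidines, the terminal oligopyrimidine (TOP) start, through which their translation is adjusted together. Many of the genes also have processed pseudogenes and near-identical copies, so that array probes can pick up more than the named transcript.

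The lungs came from C57/Bl6 mice at postnatal day 6, when secondary septa grow into the air sacs and divide them into alveoli. In the tips group, 10000 tips of secondary septa, from many animals of several litters, had been captured by laser from frozen sections; in the lung group, RNA had been taken from pooled whole lung, which itself contains the tips. The experiment was run once and then again with other litters, and each RNA was put on 2 arrays at different times, so that 4 RNA samples, 2 in each group, were measured on 8 arrays. Assignment to groups follows the sample titles, since the description field of the tip samples reads whole lung. No genotype or treatment separated the groups, and the litters were pooled within each RNA. The labels mention amplification for each tip array and, among lung arrays, just for array 1 of experiment 1, while the design text has both tissues amplified side by side.

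Signals are given after scaling every array to a common trimmed mean of 1501, and differences are log2 differences, tips minus lung, computed after adding an offset of 150.09 to each signal. The middle signal of an array was 501 to 572 on lung arrays and 787 to 924 on tip arrays, whereas the 95th percentile was 9008 to 9241 on lung arrays and 6219 to 6846 on tip arrays. Background, taken as the 95th percentile of 19 bacterial and yeast control probe sets, was 314 to 568 on lung arrays and 487 to 1244 on tip arrays. Over all 7453 probe sets bright enough to be tested, the median log2 difference was 0.35, so a probe set at that value sat with the middle of the array.

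Ribosomal protein probe sets were called in one direction. Of the 49, 33 passed the filter on dim probe sets, and 9 of these were higher in tips by limma (adjusted p under 0.05), whereas 0 were lower. Among all probe sets tested, 14.5% were called higher and 13.7% lower in tips. The 9 were Rps19, Rps18, Rps10 and Rpsa of the small subunit and Rpl19, Rpl8, Rplp0, Rpl41 and Rpl7a of the large subunit, with log2 differences from 1.20 to 3.61. At an unadjusted p under 0.05 there were 18 higher and 1 lower, against 25.5% and 18.2% of all probe sets tested. Since a probe set that is bright only in tips can pass such a filter, the fit was also made on all 49 members without it: 8 were then called higher and 0 lower, against 7.04% called higher over all 12422 probe sets, and the median log2 difference was 0.75 against 0.47. Without regard to any test, all 4 tip arrays lay above all 4 lung arrays for 20 of the 49 and below them for 1, against 22.1% and 11.2% of all probe sets. In samples of tissue such as these, a smaller share of a cell type and less RNA per cell cannot be told apart.

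**Figure D1:**
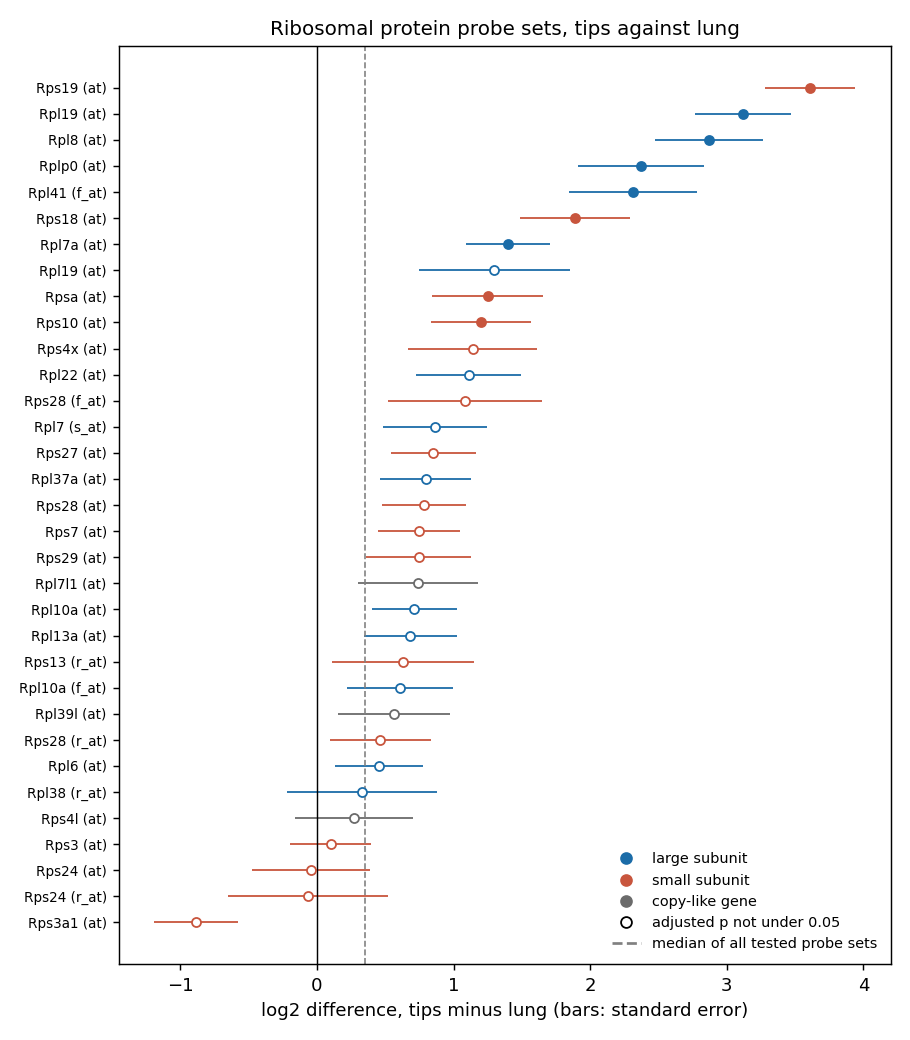
Log2 difference (tips minus lung, horizontal axis) of each of the 33 tested ribosomal protein probe sets, with bars of 1 standard error. Filled points had an adjusted p under 0.05, colours mark the subunit, and the dashed line is the median of all tested probe sets, 0.35; the 9 filled points lie between 1.20 and 3.61, and Rps3a1 lies lowest at -0.88.

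The starts of called genes are shown because the TOP start is the sequence feature by which the family is known, and it played no part in choosing the members. Of the 35 genes, 28 were found in RefSeq's table of annotated starts (GRCm38.p6), with 37 starts among them; of the 9 called genes, Rpl8 had no entry. Each line below gives 30 bases, 15 on either side of the start, 5′ to 3′ on the strand of the gene, with the pyrimidine run that holds or touches the annotated start in capitals. Where a gene has several starts, the line is that of the longest run, and for Rps19 that of the most upstream start.
Rpl7a, chr2:26910792-26910821, plus strand: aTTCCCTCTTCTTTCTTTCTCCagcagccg
Rps10, chr17:27635230-27635259, minus strand: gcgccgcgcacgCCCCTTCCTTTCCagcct
Rps18, chr17:33955651-33955680, minus strand: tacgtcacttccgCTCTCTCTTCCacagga
Rpl19, chr11:98026909-98026938, plus strand: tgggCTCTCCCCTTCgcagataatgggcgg
Rpl41, chr10:128549154-128549183, minus strand: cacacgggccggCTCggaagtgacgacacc
Rpsa, chr9:120127751-120127780, plus strand: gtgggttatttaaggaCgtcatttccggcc
Rplp0, chr5:115559452-115559481, plus strand: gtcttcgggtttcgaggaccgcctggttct
Rps19, chr7:24884577-24884606, plus strand: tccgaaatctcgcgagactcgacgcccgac
For contrast, these are the starts of Rps3, whose arrays overlapped between the groups, and of Rps3a1, the member lowest in tips.
Rps3, chr7:99483695-99483724, minus strand: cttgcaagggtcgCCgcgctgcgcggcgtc
Rps3a1, chr3:86142654-86142683, minus strand: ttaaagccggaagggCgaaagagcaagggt

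A run of at least 5 pyrimidines touched 12 of the 37 member starts (32.4%), against 18.7% of the 32851 starts in the table. It touched 5 of the 11 starts of called genes (45.5%), 4 of the 19 starts of genes that were tested but not called (21.1%) and 3 of the 7 starts of genes that were not tested (42.9%). The runs counted for Rpl19 and Rpl39l ended just before the annotated starts, and that of Rps27l began just after its start, so none of these held the start. Counted by gene, such a run touched a start of 4 of the 8 called genes (50%) and of 4 of the 16 tested but not called (25%). It touched a start of 3 of the 4 genes not tested (75%), beside 21.6% of all genes with starts. The run was 21 bases long in Rpl7a, 13 in Rps10 and 11 in Rps18 and in the start of Rpl19 shown. Among genes without a call it was 13 bases long in a start of Rpl35a, which was not tested, 10 in Rpl38 and 9 in a start of Rps24 and in Rps27. The word GGAAG, or CTTCC on the other strand, was present in the 300 bases around 35 of the 37 starts (94.6%) and around 71.4% of all starts, and 4 of the 12 pyrimidine runs overlapped it. A match to letters is a description of the annotated window, and annotated starts can lie some bases off the start used in lung.

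The ribosomal protein of the small subunit with the largest difference was Rps19, which is needed for maturation of small-subunit RNA. Its probe set (94068_at) read 797, 1016, 1342 and 1289 on the lung arrays, in the order array 1 and array 2 of experiment 1, then of experiment 2, and 19748, 16365, 14064 and 11203 on the tip arrays. Every tip array was over all lung arrays, and the tip RNA of experiment 1 was the higher of the pair. The log2 difference was 3.61 ± 0.33 (SE, limma, adjusted p = 0.00094, 2 RNA samples per group), a 12.2-fold rise on the offset scale.

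Rps18 and Rps10, further proteins of the head of the small subunit, also rose in tips. Rps18 (98333_at) read 2832, 4397, 7213 and 9200 on lung arrays and 20402, 16017, 24752 and 21091 on tip arrays. The groups did not overlap, and the lung RNA of experiment 1 was the lowest RNA. Its log2 difference was 1.89 ± 0.40 (adjusted p = 0.0105). For Rps10 (99093_at) the lung arrays gave 3653, 3351, 4453 and 6005 and the tip arrays 7609, 7189, 13477 and 13450. Again there was no overlap, but here the arrays of experiment 2 were the higher ones in both groups. The log2 difference of Rps10 was 1.20 ± 0.37 (adjusted p = 0.0396), and it passed the threshold under 10 of 19 other settings.

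Rpsa, a protein of the small-subunit platform side that is also known as a laminin receptor, had the smallest margin of the 9. Its lung arrays gave 1392, 2246, 1382 and 1589 and its tip arrays 7898, 4676, 2612 and 2783. All tip arrays were higher, the tip arrays of experiment 2 only just so. The log2 difference was 1.25 ± 0.40 (adjusted p = 0.0473), and it passed under 5 of 19 other settings.

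Among the large-subunit proteins, Rpl19, which lies by the exit of the peptide tunnel, and Rpl8, which lies close to the catalytic centre, rose most. The brighter probe set of Rpl19 (97483_at) read 1412, 1924, 2384 and 3661 on lung arrays and 22724, 24888, 17309 and 17801 on tip arrays. Groups were far apart, with the lowest tip array well above the highest lung array. The log2 difference was 3.12 ± 0.35 (adjusted p = 0.00111). The other Rpl19 probe set (161961_at) was dimmer and less even, with 1235, 1879, 1143 and 399 on lung arrays and 6223, 3976, 750.3 and 2942 on tip arrays. Tip array 1 of experiment 2 lay inside the lung range, and the log2 difference of 1.30 ± 0.55 had an adjusted p of 0.102. For Rpl8 (96575_at) the lung arrays gave 736, 584, 1233 and 1450 and the tip arrays 10893, 9192, 6236 and 6056. Here too there was no overlap, and the log2 difference was 2.87 ± 0.40 (adjusted p = 0.00197).

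Rplp0 is the base of the stalk that recruits the translation factors, and it was the only stalk gene with a probe set of its own here. It (101213_at) read 5388, 7380, 6859 and 7928 on lung arrays and 60612, 60123, 22041 and 20647 on tip arrays. Arrays of an RNA agreed closely, while the tip RNAs of the experiments lay far apart, both above lung. The log2 difference was 2.37 ± 0.46 (adjusted p = 0.0074). Rpl41, the shortest protein of the family, had a probe set with the ending f_at, which marks probes shared with other transcripts. Its lung arrays gave 38332, 46691, 55669 and 64206 and its tip arrays 267775, 299914, 211524 and 232498. Tip arrays were higher throughout, with a log2 difference of 2.31 ± 0.47 (adjusted p = 0.00857). Rpl7a (98168_at), a large-subunit protein, gave 6203, 6468, 7330 and 7288 on lung arrays and 21266, 20653, 16467 and 15040 on tip arrays. Its groups were tight and separate, and the log2 difference was 1.40 ± 0.31 (adjusted p = 0.0118).

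**Figure D2:**
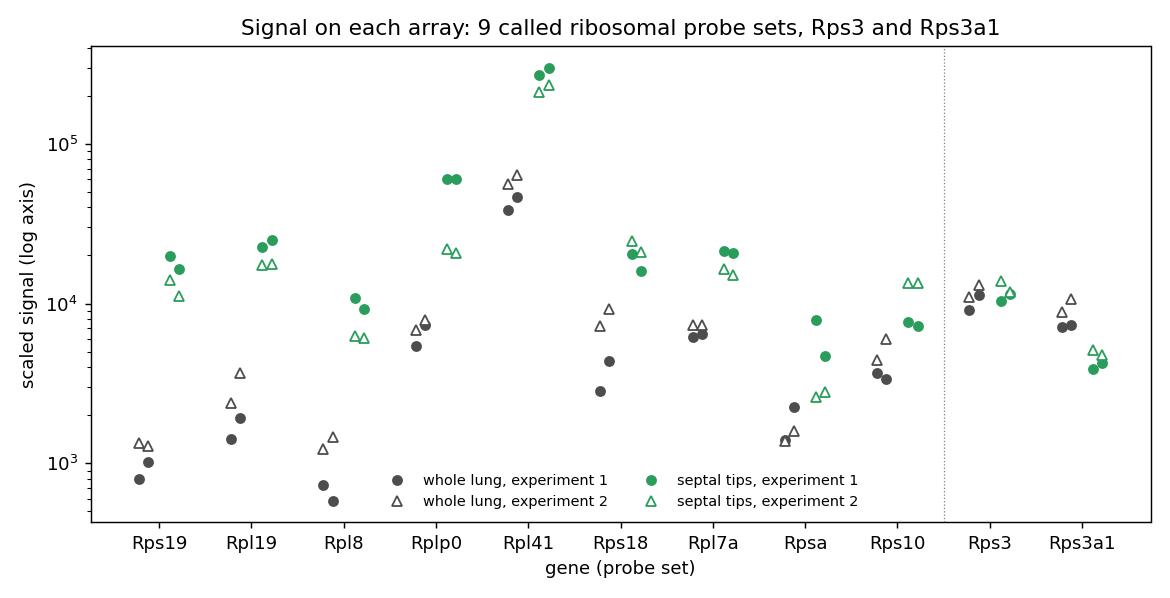
Scaled signal on each array (vertical log axis) for the 9 called probe sets and, right of the dotted line, for Rps3 and Rps3a1; grey marks are whole lung, green marks septal tips, circles experiment 1 and triangles experiment 2. The tip arrays lie above the lung arrays for all 9 called probe sets, overlap them for Rps3 and lie below them for Rps3a1.

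The member that stood apart from the others was Rps3a1, a protein of the small-subunit platform. Its lung arrays gave 7083, 7365, 8865 and 10744 and its tip arrays 3910, 4216, 5149 and 4743. Every tip array was under every lung array, which was the case for no other member. The log2 difference was -0.88 ± 0.31 with an adjusted p of 0.0572, so it did not pass. Rps3a1 passed under 3 of 19 other settings, and its log2 difference ran from -1.43 to -0.48 over them. With the experiment as a replicate block the adjusted p was 0.0373. Under median centring it was 0.0165 (log2 difference -1.43), where 20.3% of all probe sets tested were called lower. The remaining such setting, without the tip RNA of experiment 2, had a log2 difference of -1.02. Under quantile normalization the log2 difference was -0.58 (adjusted p = 0.218) and under cyclic loess -0.48 (adjusted p = 0.272). Rps3, at the entry of the mRNA channel, gave 9067, 11330, 10968 and 13122 on lung arrays and 10442, 11475, 13817 and 11855 on tip arrays. These ranges overlapped, and the log2 difference was 0.10 ± 0.30 (adjusted p = 0.816). Its sign turned under median centring (-0.44), on array 2 alone, and when the lung RNA of experiment 1 or the tip RNA of experiment 2 was left out.

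Most other tested members lay between these. The 24 that were not called had log2 differences from -0.88 to 1.30 with a median of 0.70, and 21 were above 0. Their smallest adjusted p was 0.0572, and 10 of them had an unadjusted p under 0.05. For the median probe set of the array the standard error of a log2 difference was 0.40. Rpl22, a large-subunit protein that many cells can do without, came near the threshold at 1.11 ± 0.38 (adjusted p = 0.0572). Its other, dim probe set was not tested and went the other way in the fit without the filter (-0.55), with no tip array above background. Rps27 followed at 0.85 ± 0.31 (adjusted p = 0.0666), Rpl37a at 0.79 ± 0.34 (adjusted p = 0.101), Rps7 at 0.75 ± 0.30 (adjusted p = 0.0875) and Rps29 at 0.74 ± 0.38 (adjusted p = 0.166). Rpl13a and Rpl6 had 0.68 and 0.45. These genes were picked for the text after their values were known.

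The experiments differed in the size of the differences and, for 5 probe sets, in sign. The median log2 difference of the 33 tested members was 1.11 in experiment 1 and 0.78 in experiment 2, where all tested probe sets had 0.30 and 0.33. For 28 of the 33 the sign was shared, and for 27 both experiments were positive; of all 7453, 5873 shared the sign. The 5 were the f_at probe set of Rpl10a, the r_at probe sets of Rpl38 and Rps13, and both probe sets of Rps24. Among the 9 called probe sets the larger difference was mostly in experiment 1: Rplp0 had 3.23 and 1.51, Rpl8 3.65 and 2.08, and Rpsa 1.70 and 0.80. The exception among the 9 was Rps10, with 1.05 and 1.35. Rps4x, the X-linked small-subunit protein, had 0.56 and 1.72, for 1.14 ± 0.47 in all (adjusted p = 0.0961), and its tip arrays gave 4433 and 4432 in experiment 1 but 13411 and 13263 in experiment 2. Rps13 had 1.87 and -0.61, and its arrays of an RNA also differed, 2412 against 873 in the tip RNA of experiment 2.

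**Figure D3:**
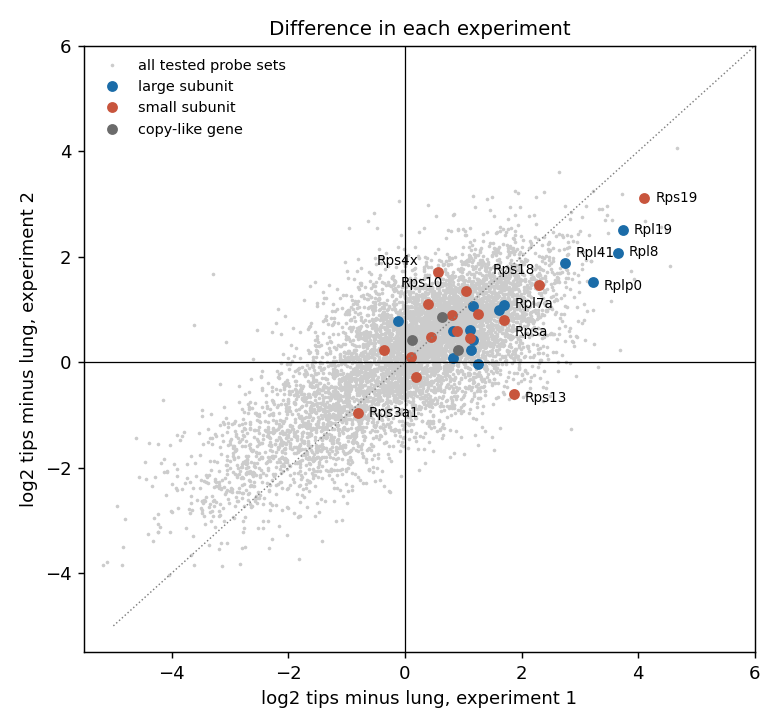
Log2 difference in experiment 1 (horizontal axis) against experiment 2 (vertical axis) for each tested probe set; coloured points are ribosomal proteins by subunit, grey points all 7453 tested, and the dotted line marks equal differences. Of the 33 coloured points, 27 are positive on both axes, Rps3a1 is negative on both, and Rps13 differs in sign.

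Centred on its mean over all arrays, the median tested member lay at -0.63 and -0.60 on the lung arrays of experiment 1, at -0.20 and -0.23 on those of experiment 2, and at 0.38 to 0.44 on the 4 tip arrays. Over all tested probe sets the same medians were -0.15 to -0.06 on lung arrays and 0.13 to 0.19 on tip arrays. The family median was thus lowest in the lung RNA of experiment 1, while the medians of the tip arrays were alike. Single members, such as Rplp0 and Rps4x, still differed between the tip RNAs. Leaving out an RNA moved the calls over the whole array as well as in the family. Without the lung RNA of experiment 1, 3 members were called higher (Rps19, Rpl19 and Rpl8) beside 0.966% of all probe sets tested, and when the other lung RNA was dropped 5 were, beside 2.32%. With the tip RNA of experiment 1 dropped, 13 members were called higher beside 20.9%, and with that of experiment 2 dropped, 14 were higher beside 25% and 1 lower beside 19.6%.

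By subunit, the rise was seen in both. Over all tested probe sets 14.5% were called higher, with a median log2 difference of 0.35. Of 20 large-subunit probe sets, 14 were tested and 5 called higher, with a median log2 difference of 0.99. Of 24 small-subunit probe sets, 16 were tested and 4 called higher, with a median of 0.77. Over all probe sets of each subunit without the filter, the medians were 0.83 and 0.75, with 5 and 3 called. The whole array without the filter had a median of 0.47, with 7.04% called higher. With the brightest probe set per gene, 5 of 12 large-subunit genes and 4 of 13 small-subunit genes were called. Members of a subunit are not replicates, so the difference between the medians was not tested. The small subunit held the widest spread, from Rps3a1 at -0.88 to Rps19 at 3.61, and the large subunit ran from Rpl38 at 0.33, which was below 0 under 3 of the scalings, to Rpl19 at 3.12.

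By place in the ribosome, the counts are small and stand beside the 14.5% of all tested probe sets that were called higher. The head of the small subunit had 3 calls in 8 tested probe sets (Rps19, Rps18 and Rps10) and a median log2 difference of 0.93. The small-subunit body and platform had 1 call in 8 (Rpsa), a share near that of the array, with 0 calls in the fit without the filter and a median of 0.69; at an unadjusted p under 0.05, 5 of these 8 passed in the filtered fit, Rps3a1 among them as the lower. Of the stalk, Rplp0 was tested and called. At the peptide exit tunnel and its rim, both Rpl19 probe sets were tested and the brighter was called. Among the remaining large-subunit probe sets, 3 of 11 were called (Rpl8, Rpl41 and Rpl7a), with a median of 0.79. Rpl5 and Rpl11, which bind the smallest ribosomal RNA of the large subunit, had no probe set with a single symbol here.

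Copies of ribosomal protein genes are kept apart, since their proteins replace a family member in certain tissues. Of their 5 probe sets, 3 were tested and 0 called (0 also at an unadjusted p under 0.05). Rpl7l1 had a log2 difference of 0.74 ± 0.44 (adjusted p = 0.222) and Rpl39l, whose protein is best known from testis, 0.56 ± 0.41 (adjusted p = 0.310). Rps4l had 0.27 ± 0.43 (adjusted p = 0.656), and its sign turned under quantile normalization (-0.21), median centring (-0.27) and cyclic loess (-0.22). Rps27l did not reach background on any lung array and did so on 1 tip array, and its probe set was not tested.

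The ending of a probe set name tells whether its probes were unique to a transcript by design. Plain at probe sets, without a letter for shared probes, numbered 34, of which 25 were tested and 8 called higher, with a median log2 difference of 0.79. Of 15 with another ending, 8 were tested and 1 called (Rpl41), with a median of 0.62. That share was near the 14.5% called higher over all tested probe sets, whose median was 0.35. Those ending in f_at, which mark families of like transcripts, were 3, all tested, with a median of 1.08, and those in r_at, designed with fewer rules, were 9, of which 4 were tested and 0 called, with a median of 0.40. At an unadjusted p under 0.05, 0 of those 4 passed as well. Rps28 shows the range within a gene: the log2 difference was 1.08 ± 0.56 for its f_at probe set, 0.78 ± 0.31 for the at probe set and 0.46 ± 0.37 for the r_at probe set, with adjusted p of 0.167, 0.0818 and 0.357. Rpl10a had 0.61 (f_at) and 0.71 (at), adjusted p 0.252 and 0.111.

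Rps24 is a case where the name itself is doubtful. Its bright probe set, ending in r_at, read 179134, 202860, 235635 and 241390 on lung arrays and 146470, 149824, 279288 and 282072 on tip arrays. Tips were lower than lung in experiment 1 and higher in experiment 2, and the log2 difference was -0.06 ± 0.59 (adjusted p = 0.943), turning to 1.04 under cyclic loess. The probe annotation ties that probe set to the same GenBank entry as the s_at probe set of Rpl7, which gave 0.87 ± 0.38 (adjusted p = 0.112) and was called under quantile normalization (log2 difference 1.52) and cyclic loess (1.70). The dim at probe set of Rps24 had -0.04 ± 0.43 and was not called. A further 39 probe sets joined a ribosomal protein symbol with other symbols and so were not members. Of these, 34 were tested, 7 were called higher and 1 lower, with a median log2 difference of 0.30. Among all tested probe sets 14.5% were called higher and 13.7% lower, with a median of 0.35.

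The 16 members that were not tested were dim, with signals from 17.8 to 1740. For 11 of them all lung arrays were under background, and for 4 all arrays were. Rps15, Rps27l, Rpl32, Rpl35a, Rps20, Rpl39 and Rps14 were measured only by such probe sets. In the fit without the filter their median log2 difference was 0.62, and only Rps20, a protein of the small-subunit head, was called. Its lung arrays gave 152, 86.4, 198 and 33.8, all under background, and its tip arrays gave 361, 1181, 497 and 1168, of which 2 were above it. All tip arrays were higher (log2 difference 1.75, adjusted p = 0.0341 in that fit). The measured tip signals of Rps20 were 1.70-fold over the lung bound. This is not a lower limit, because only 2 tip arrays were above background. The lung bound is, per lung array, the higher of background and measured signal, while tip signals under background were taken as measured. Rpl39, of the exit tunnel, also had all lung arrays under background and 3 tip arrays above it, but with an adjusted p of 0.123 it did not pass.

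The number of calls moved with the scaling between arrays. Under quantile normalization 9 members were called higher (8.24% of all tested), with Rpl7 gained and Rpsa lost, and the median of all tested probe sets was 0.03. Under median centring, which put the median of all tested at -0.19, 5 were called higher (3.64%) and 1 lower (20.3%), the latter Rps3a1. Under cyclic loess 15 were called higher (10.8%), with a median of all tested of 0.05. Rps19, Rpl19, Rpl8, Rplp0 and Rpl41 were called under all 5 scalings, including that without rescaling. Rps18, Rpl7a and Rps10 were called under 4 and Rpsa under 2, and all 9 were higher in tips under each scaling.

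**Figure D4:**
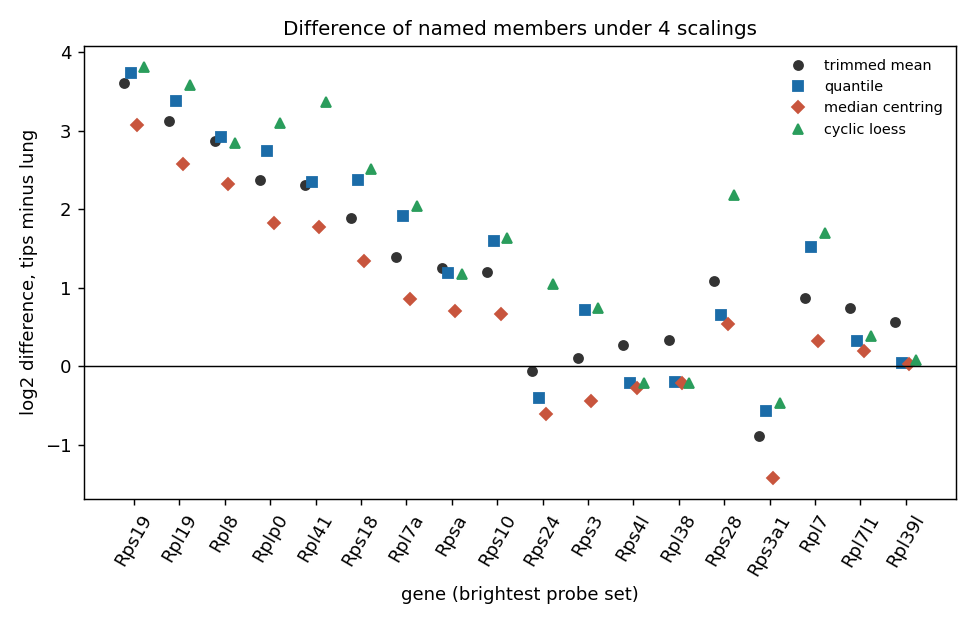
Log2 difference (tips minus lung, vertical axis) of the brightest probe set of each named member under 4 scalings, as marked in the key. The 9 called genes on the left stay above 0 under each, while Rps24, Rps3, Rps4l and Rpl38 lie on both sides of 0 and Rps3a1 stays below it.

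Background was handled in a further setting, because it was higher on tip arrays. With every signal under 1244 raised to that level, 5 members were called higher (3.69% of all tested): Rps19, Rpl19, Rpl8, Rpl41 and Rpl7a. Rplp0 had an adjusted p of 0.0542 there with a log2 difference of 2.40, and Rps18 0.0605 with 1.92. At the lower level of 792, which was chosen after the data had been seen, 8 were called (10.5%). With the experiment as a replicate block, 11 members were called higher (17.4%) and 1 lower (15.5%): Rpl19's other probe set (adjusted p = 0.0150) and Rps4x (0.0163) joined the higher ones, and Rps3a1 was the lower.

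In the linked gene lists calls were made in both directions, as over the whole array (14.5% higher, 13.7% lower). For mitochondrial ribosomal proteins, which build the separate ribosome of mitochondria, 48 of 61 genes were tested, 8 were higher and 2 lower, the higher share being near that of the array, with a median log2 difference of 0.54. Mrps26 rose by 1.92 ± 0.39 (adjusted p = 0.00834), Mrpl24 by 1.70 ± 0.38 and Mrpl4 by 1.58 ± 0.36, while Mrps14 had -1.61 ± 0.30 (adjusted p = 0.00608) and Mrpl9 -1.39 ± 0.44. Mrpl14 is counted among the higher ones though its lung arrays were all under background, so that its level in lung is only a bound. The test of a difference between the lists was not made.

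Other mRNAs with a TOP start code for translation factors and RNA-binding proteins. Of 18 such genes 15 were on the array and 13 tested, with a median log2 difference of 0.25. Of those tested, 1 was higher and 4 lower, beside 14.5% and 13.7% of all probe sets tested. Hnrnpa1, an RNA-binding protein, had 1.60 ± 0.38 (adjusted p = 0.0160). Eif4b, a helper of translation initiation, had -3.11 ± 0.42 (adjusted p = 0.00184), with a signal of 6973 ± 2200 in lung and 802 ± 274 in tips (SD, n = 2). Its next probe set had -1.30 ± 0.47 (adjusted p = 0.0665), while its dim probe sets, not tested, were higher in tips in all 4 array pairs. Npm1, a nucleolar chaperone, had -2.39 ± 0.34 (adjusted p = 0.00211), Eif3e -1.25 ± 0.37 and Eef1a1, the elongation factor that delivers transfer RNA, -1.20 ± 0.34 (adjusted p = 0.0300). Fau, which is made as a fusion of a ubiquitin-like protein with a small-subunit protein, had 0.27 ± 0.46 (adjusted p = 0.675), and the other ubiquitin-fused genes had no probe set with a single symbol here.

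Ribosome biogenesis genes were called in both directions, as was the whole array (14.5% higher, 13.7% lower), and their lower share was near that of the array. Of 32, 31 were on the array, 23 were tested, 6 were higher and 3 lower, with a median log2 difference of 0.16. Rrs1, an assembly factor of the large subunit, had -3.29 ± 0.33 (adjusted p = 0.00094), with signals of 10913 ± 3111 (SD, n = 2) in lung and 997 ± 184 (SD, n = 2) in tips. Tsr1, an assembly factor of the small subunit, had -2.41 ± 0.54 (adjusted p = 0.0132), with 1 tip array above background, and Npm1 is in this list too. Rrp1 had all lung arrays under background and 3 tip arrays above it (adjusted p = 0.00773). Its tip signals were 3.11-fold over the lung background, with the remaining tip array taken as measured. Nhp2 had 2.09 ± 0.48 (adjusted p = 0.0145), with 1 lung array above background, and Polr1b, a subunit of RNA polymerase I, 1.54 ± 0.40 (adjusted p = 0.0214). Taf1c, Rrp9 and Nop56 were the remaining higher genes, at 1.21, 1.03 and 0.99.

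**Figure D5:**
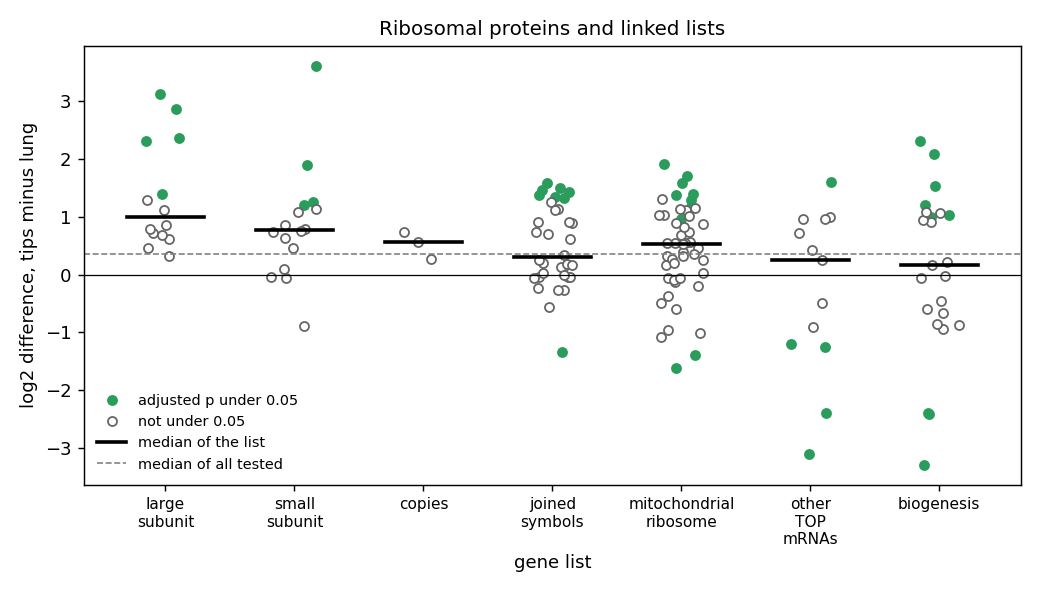
Log2 difference (tips minus lung, vertical axis) for ribosomal protein probe sets by subunit, for copies, for probe sets with joined symbols and for 3 linked gene lists (brightest probe set per gene); green points had an adjusted p under 0.05, bars are list medians and the dashed line the median of all tested, 0.35. All calls in the large and small subunit columns lie above 0, and those of the joined, mitochondrial, other TOP and biogenesis columns lie on both sides of it.

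Markers of cell types differed between the groups as well. Each gene is counted by its brightest probe set, and the counts stand beside 14.5% called higher and 13.7% lower over all probe sets tested. Among endothelial markers 3 of 5 were higher in tips, with a summed signal of 26635 to 29540 on lung arrays and 49192 to 76055 on tip arrays. Contractile markers of myofibroblasts and smooth muscle were higher for 4 of 5, with sums of 14597 to 39475 and 27627 to 41136. Of the type II cell markers Sftpc rose and Sftpb was not called, with sums of 21875 to 37200 and 97844 to 113709, and airway markers were higher for 2 of 3, with 14524 to 24475 and 32993 to 83794. Dividing-cell markers were lower for 2 of 3 (Pcna and Top2a), with 25073 to 40699 and 5638 to 10503. Probe sets of the third, Mki67, went apart: the brighter had a log2 difference of -1.01 ± 0.39 (adjusted p = 0.0784), whereas the dimmer was called higher in tips at 1.37 ± 0.43 (adjusted p = 0.0443). Leukocyte markers were split, 1 higher (Cd52) and 1 lower (Ptprc) of 4 tested, with sums of 13157 to 18712 and 19585 to 28583. Most of these sums was Lyz2, which was not called (adjusted p = 0.160). Ptprc had a log2 difference of -1.95 ± 0.41 (adjusted p = 0.0093), and its dim probe sets were not tested. Of septal matrix markers 1 of 3 was higher (Lgals1), with sums of 44102 to 88932 and 62201 to 169129. These were mostly Eln, which was not called. The brightest Pdgfra probe set had -0.83 ± 0.33 (adjusted p = 0.0861) and the next 0.38 ± 0.41. Erythroid markers were called for 0 of 2 (0 also at an unadjusted p under 0.05, but 1 with the experiment as a replicate block), with 5738 to 28902 on lung arrays and 13104 to 74778 on tip arrays. Kdr of the endothelial and Acta2 of the contractile markers lay near 0, at 0.05 ± 0.32 and 0.09 ± 0.42, with opposite signs in the experiments. The part of cell makeup in the ribosomal protein differences was not tested.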

How the data were processed

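Signals of 8 arrays were used. The deposited values are intensities, a linear signal per probe set that the authors computed in MAS5 (per the submitters' processing notes; version not given); a genome build is not given in the sources used here. Here the arrays were brought to 1 trimmed mean (2% left out at each end), and log2 was taken after adding 10% of this mean, which understates differences of dim probe sets. After leaving out 66 control probe sets and those under the 40th percentile of mean log2 value, 7453 probe sets were tested. Arrays of an RNA were averaged, leaving 2 RNA samples per group, whose number limits the precision. The comparison used limma 3.58.1 (lmFit, eBayes with intensity trend; 2 residual and 7.05 prior degrees of freedom) in R 4.3.3, with Benjamini-Hochberg adjustment over all tested probe sets and a threshold of 0.05. Each ± beside a log2 difference is a standard error from that fit, and its p-values draw on how far the RNA samples, of different litters, lay apart and on a spread pooled over probe sets.

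Of the probe sets, 10855 had a single symbol, 396 several and 1237 none; 10839 single symbols were updated by gene ID to RefSeq's GRCm38.p6 table, and the platform's own symbols gave the same 49 members. The members and gene lists were chosen with earlier results of these data known. Named genes were the called members that agreed in all 4 array pairs, the 4 nearest to 0, up to 2 per place by level, the copies, and up to 4 per linked list by p; genes outside that rule are further called members of a list or were picked after their values were seen. Rps4l was put with the copies although it was not in the list of copies drawn up first. The experiment number pairs tips and lung, since the design text has them processed together; over probe sets, same-numbered RNA samples deviated from their groups with a correlation of 0.0452. The procedure was tested on simulated data, with a common spread for all probe sets of a group. There 9.6% of log2 differences of 1 were recovered, 75.5% of those of 2 and 99.5% of those of 3. Far fewer probe sets were changed there than the 2106 called in the real fit, so the adjusted threshold was harder to reach. These shares are therefore not estimates of what the real fit recovers. Alternatives covered scaling, offset, filter, a floor for dim values, a replicate block, leaving out each RNA, single arrays, the variance model and the choice of probe sets. Pyrimidine runs and words were searched by script in RefSeq's start windows. Protein sequences were not used here.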

Additional observations from a re-analysis of the deposited data

Results flagged for a closer look

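The f_at probe set of Rps28, a protein of the small-subunit head, had a single tip array far from the others. Array 1 of the tip RNA of experiment 2 read 428611, while the other 3 tip arrays read 249201, 250475 and 247860, so that the gap to the nearest array was 0.981 of the whole range of the group, above Dixon's 95% critical value for 4 arrays. The 2 arrays that differ here carry the same RNA. Of 42 groups of 4 arrays examined, this was the only such case, and chance gives about 1 in 20. The log2 difference of this probe set was 1.25 in experiment 1 and 0.92 in experiment 2, and it was not called.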

How the results depend on the processing

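Calls of the ribosomal family depended on the scaling between arrays, and so did those of the whole array (14.5% higher and 13.7% lower in the main fit). Median centring gave 5 members higher and 1 lower, beside 3.64% and 20.3% of the array. The family median was then 0.24, with 0.45 for the large and 0.22 for the small subunit. The middle tested probe set of the array lay at -0.19 there. Cyclic loess gave 15 higher, beside 10.8%, and a median of 0.91 for the small subunit. The common floor gave 5 higher, beside 3.69%. The paired analysis with the experiment as a replicate block gave 11 higher and 1 lower, beside 17.4% and 15.5%. The causes of these shifts were not tested, except that the floor raises dim values by construction. Leaving out an RNA in turn gave 3 to 14 higher and 0 to 1 lower, with medians of 0.91 to 1.22 for the large and 0.68 to 0.96 for the small subunit; 3 were called without the lung RNA of experiment 1, 5 without that of experiment 2, 13 without the tip RNA of experiment 1 and 14 without that of experiment 2, beside 0.966%, 2.32%, 20.9% and 25% of all probe sets tested. Each such fit leaves a group with a lone RNA, assumed to vary like the other group. Rps19, Rpl19 and Rpl8 passed under all 19 alternatives, Rplp0 and Rpl41 under 17, Rps18 and Rpl7a under 16, Rps10 under 10 and Rpsa under 5. Signs turned for members near 0. Rps4l had -0.21 (quantile), -0.27 (median centring), -0.22 (cyclic loess), -0.21 (array 1 only) and -0.19 (without array 2 of the tip RNA of experiment 1, an alternative chosen after seeing the data). Rpl38 had -0.20, -0.21 and -0.22 under those scalings and -0.15 on array 2 only, Rps3 -0.44 under median centring and -0.063 on array 2 only, and Rps24 1.04 under cyclic loess. With an RNA left out, Rps4l ran from -0.063 to 0.60, Rpl38 from -0.31 to 0.97, Rps3 from -0.019 to 0.22 and Rps24 from -0.52 to 0.40. Signal over background limits the dim members, 11 of which had no lung array above it.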
